A study of Danio rerio with 12 samples.

Results

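The genes described here are 34 zebrafish genes that act in protein folding in the endoplasmic reticulum (ER) and in the unfolded protein response. They were chosen by symbol, from what their products do, and with earlier results of these data known. Each symbol matched 1 Ensembl gene ID, so that they make up 34 of the 32105 gene IDs counted. All 34 passed the filter on low counts, which kept 23096 genes for testing. The ER genes were measured by poly-A RNA-seq in pools of 10 whole larvae, with 3 libraries in each of 4 groups and 12 libraries in all. The first group was as3mt mutant larvae that had been kept in 1 mM iAs (the usual abbreviation for inorganic arsenic) since 6 hours post-fertilization (hpf), and the second was as3mt mutant larvae without iAs. The third group was wild-type TAB14 larvae under the same iAs dose, and the fourth was wild-type TAB14 larvae without iAs. All pools were collected at about 119 hpf from wells holding 20 embryos. The mutants were offspring of homozygous F2 fish that carry a CRISPR deletion of 8 bp in exon 3 of as3mt, with a premature stop codon, in the WT-ABNYU background. The gene as3mt encodes the methyltransferase that methylates arsenic. Mutant and wild-type larvae thus differed in strain background as well as at as3mt, and the effects of the allele and of the background cannot be told apart.

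Proteins bound for secretion enter the ER through the Sec61 channel, receive N-linked glycans and disulfide bonds, and fold with the help of chaperones. Proteins that fail to fold are drawn back into the cytosol and destroyed by the proteasome, a route called ER-associated degradation. When unfolded proteins build up, the sensors encoded by ern1 (IRE1), eif2ak3 (PERK) and atf6 start the unfolded protein response, which slows translation and raises transcription of chaperone and degradation genes.

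Library totals ran from 28909467 to 43759270 counts. The common biological coefficient of variation was 9.0%. Levels are given in CPM, the read count relative to the library total after TMM scaling of that total. The as3mt transcript averaged 3.28 ± 0.245 CPM in mutant larvae with iAs and 9.55 ± 0.352 CPM in untreated mutant larvae. It averaged 9.81 ± 0.103 CPM in wild-type larvae with iAs and 16.1 ± 1.57 CPM in untreated wild-type larvae (SD, n = 3 each). Mutant libraries were thus below wild-type libraries at each dose, although a deletion of this size leaves most of the transcript to be counted. The sample titles number the pools of each group cl1 to cl3, a suffix that the labels do not explain. Whether the 3 pools came from separate clutches is thus not stated, and p-values measure the spread between these pools, which may be partly technical. In RNA from whole larvae, fewer cells of a type and less RNA per cell cannot be told apart.

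The first comparison was iAs against no iAs in as3mt mutant larvae. A gene was called when its adjusted p, from edgeR's quasi-likelihood test with Benjamini-Hochberg adjustment over all genes tested, was below 0.05. Of the 34 ER genes, 9 rose and 7 fell with iAs in the mutant, and 18 did not pass the test. The 9 were ero1a, derl2, hspa5, atf6, derl3, edem1, herpud1, erlec1 and xbp1, and the 7 were calr, uggt1, ern1, txndc11, pdia3, p4hb and ssr2. Over all genes tested, 63.6% were called in either direction, 31.1% higher and 32.6% lower, so 26.5% of the ER genes called higher and 20.6% called lower lay below both background shares. The median log2 fold change of the ER genes was -0.03, against 0.01 over all genes. The iAs-treated and untreated mutant libraries did not overlap for 9 ER genes that were higher with iAs (background 32.8%) and for 6 that were lower with iAs (background 33.9%). With library size as the only scaling, 7 ER genes were called higher and 12 lower in this comparison, while the median over all genes was -0.05. Beside these counts, 16 of 18 exocrine pancreas markers and 25 of 27 enterocyte markers fell with iAs in the mutant, and their part in the result was not tested.

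The second comparison was the same dose against no iAs in wild-type larvae. Here 14 ER genes rose, 3 fell and 17 did not pass the test. The 14 were ero1a, atf6, derl2, derl1, hyou1, hspa5, edem1, canx, erlec1, pdia4, herpud1, pdia3, ddost and sec61b, and the 3 were calr, eif2ak3 and ern1. The background was 44.8% of all genes called in either direction, 22.6% higher and 22.2% lower, against 41.2% and 8.82% of the ER genes. Their median log2 fold change was 0.17, against 0.01 over all genes. The 2 groups did not overlap for 16 ER genes that were higher with iAs (background 28.4%) and for 3 that were lower with iAs (background 27.1%). The count of 14 rested in part on 1 library, since 8 ER genes were called higher without wild-type iAs replicate 3. In wild type, 15 of the 18 exocrine pancreas markers and 25 of the 27 enterocyte markers fell.

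The libraries behind the mutant and the wild-type comparison are separate, but all 12 were fitted together, with a shared estimate of spread. The wild-type call of ern1, for example, was lost without mutant iAs replicate 3 (edgeR adjusted p = 0.0592). The calls are set side by side here, but they are not independent tests. In both genotypes 7 ER genes rose: ero1a, hspa5, derl2, atf6, edem1, herpud1 and erlec1. Both genotypes showed a fall of calr and ern1. The wild-type calls of hspa5, herpud1, erlec1 and ern1 were lost on leaving out single libraries, as was the mutant call of erlec1. The disulfide isomerase gene pdia3 fell in the mutant and rose in wild type. A further 11 ER genes were called in neither genotype, among them hsp90b1, manf, creld2, sdf2l1, sel1l and syvn1. Shares of all genes called in both or in neither genotype were not counted, so these counts are descriptions only. Taken singly, the comparisons called 63.6% of all genes in the mutant and 44.8% in wild type. The CPM of the 34 genes summed to 2607 ± 88.1 in mutant larvae with iAs and 2426 ± 148 in untreated mutant larvae. The sum was 2678 ± 35.7 in wild-type larvae with iAs and 2418 ± 66.7 in untreated wild-type larvae (SD, n = 3 each). The mutant sums overlapped, from 2512 to 2686 CPM with iAs and from 2256 to 2526 CPM without. The wild-type sums did not, from 2652 to 2718 CPM with iAs and from 2342 to 2469 CPM without. Such sums weigh genes by their level, and hspa5 alone averaged 383.2 CPM in treated and 193.7 CPM in untreated mutant larvae. In wild-type larvae hspa5 averaged 213.3 CPM with iAs and 163.3 CPM without. The mutant sums therefore do not show a rise of the gene set as a whole. In wild type the summed level was higher with iAs, which describes the sum and not each gene.

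**Figure D1:**
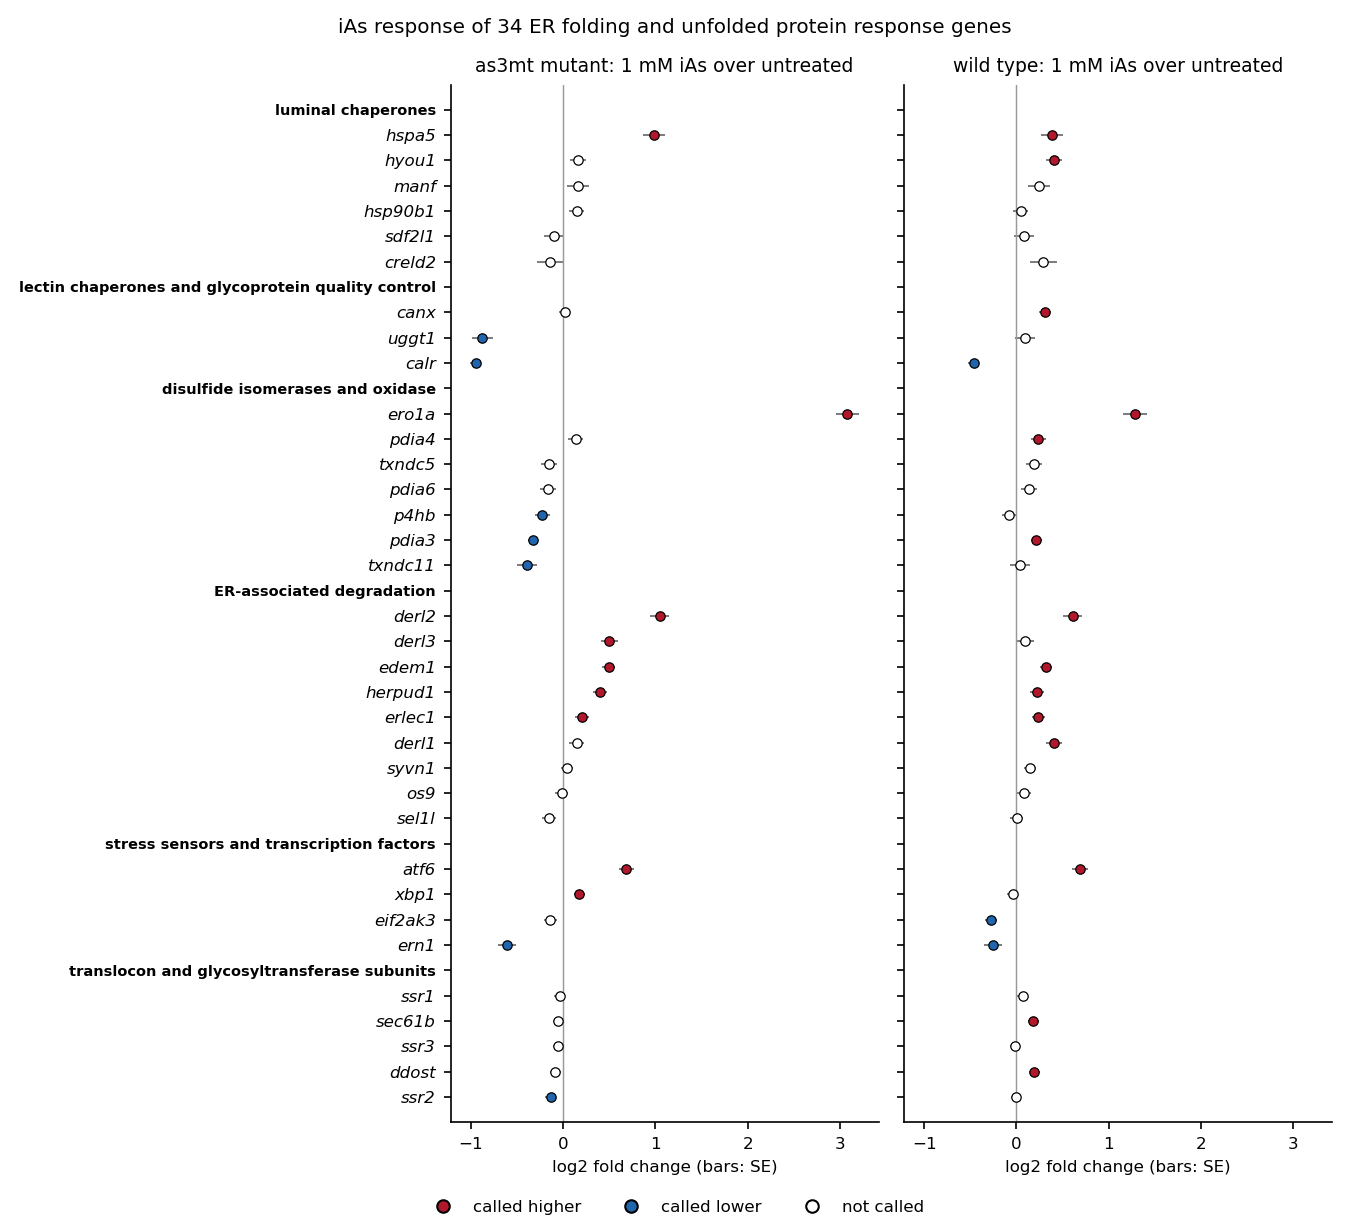
Log2 fold change of each of the 34 ER genes with 1 mM iAs over no iAs, in as3mt mutant larvae (left) and in wild-type larvae (right), grouped by role, with bars for the standard error. Filled points passed the test, red for higher and blue for lower: 9 and 7 genes in the mutant and 14 and 3 in wild type, with ero1a farthest to the right in both panels.

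Among the disulfide enzymes, the largest change of any of the 34 genes was that of ero1a (ENSDARG00000015228), the oxidase that recharges protein disulfide isomerase. It stood at 38.5, 33.1 and 29.4 CPM in mutant larvae with iAs, against 4.54, 3.73 and 3.64 CPM in untreated mutant larvae. In wild-type larvae it stood at 8.93, 10.4 and 10.9 CPM with iAs, against 4.62, 3.79 and 4.07 CPM without. The treated libraries lay above the untreated ones in both genotypes, and each treated mutant library lay above each treated wild-type library. The fold change was 8.46 in the mutant (log2 3.08, SE 0.13, edgeR adjusted p = 9.8e-13) and 2.43 in wild type (log2 1.28, SE 0.13, adjusted p = 3.75e-07). In order of level, the treated mutant came first and the treated wild type second, and the untreated groups did not differ beyond their spread.

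The gene pdia3 (ENSDARG00000102640) encodes the isomerase that works with calnexin and calreticulin on glycoproteins. It stood at 112.0, 112.1 and 116.6 CPM in mutant larvae with iAs, against 146.5, 146.7 and 133.7 CPM in untreated mutant larvae. Its wild-type levels stood at 137.9, 142.9 and 145.0 CPM with iAs, against 127.4, 117.4 and 122.2 CPM without. Neither pair of groups overlapped, and the directions were opposite: log2 -0.33 in the mutant (SE 0.06, adjusted p = 7.3e-05) and 0.21 in wild type (SE 0.06, adjusted p = 0.00509). The gene txndc11 (ENSDARG00000101291), a thioredoxin-domain protein of the ER, had 7.28, 7.33 and 7.11 CPM in mutant larvae with iAs and 9.71, 10.2 and 8.56 CPM in untreated mutant larvae, a fall of 1.31-fold (log2 -0.39, SE 0.11, adjusted p = 0.00415). In wild-type larvae txndc11 stood at 10.3, 9.10 and 8.46 CPM with iAs and 9.64, 8.66 and 8.73 CPM without, and these libraries overlapped (log2 0.04, SE 0.11, adjusted p = 0.785). The gene p4hb, which encodes protein disulfide isomerase itself, fell in the mutant by 0.23 on the log2 scale (SE 0.08, adjusted p = 0.0188), and pdia4 rose in wild type by 0.24 (SE 0.08, adjusted p = 0.0223). Each of these last calls was lost when any 1 of 4 libraries was left out, with adjusted p up to 0.0944 for p4hb and up to 0.127 for pdia4. The remaining isomerases, pdia6 and txndc5, were called in neither genotype.

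Of the 6 luminal chaperone genes, hspa5 (ENSDARG00000103846) was the only one called in the mutant, and hspa5 and hyou1 were called in wild type. These were rises of 16.7% and 33.3% of the 6 genes, beside 31.1% and 22.6% of all genes called higher. Shares of so few genes are descriptions only. BiP, the product of hspa5, is the Hsp70 of the ER lumen and holds the stress sensors inactive. Its mRNA stood at 480.6, 305.9 and 363.3 CPM in mutant larvae with iAs, against 195.4, 198.7 and 187.1 CPM in untreated mutant larvae. The wild-type libraries stood at 219.5, 186.5 and 233.8 CPM with iAs, against 169.6, 149.8 and 170.3 CPM without. The groups did not overlap in either genotype, and the treated mutant libraries were the most spread out of any group for this gene. The fold change was 1.98 in the mutant (log2 0.98, SE 0.12, adjusted p = 9.8e-07) and 1.31 in wild type (log2 0.39, SE 0.12, adjusted p = 0.0129). The wild-type call was lost without wild-type untreated replicate 2 (log2 0.33, adjusted p = 0.0615) and without wild-type iAs replicate 3 (log2 0.30, adjusted p = 0.0834). Leaving out single libraries gave 0.79 to 1.15 in the mutant, where each of these calls was kept.

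The gene hsp90b1 (ENSDARG00000003570) encodes Grp94, the Hsp90 of the ER lumen. It stood at 209.2, 170.8 and 201.6 CPM in mutant larvae with iAs, against 178.3, 189.0 and 158.1 CPM in untreated mutant larvae. In wild-type larvae it stood at 153.8, 153.9 and 152.6 CPM with iAs, against 155.3, 133.9 and 155.9 CPM without. The libraries overlapped in both genotypes, and the gene was not called (mutant log2 0.15, 95% interval -0.02 to 0.32, adjusted p = 0.123; wild type 0.05, interval -0.12 to 0.22, adjusted p = 0.659). Without mutant iAs replicate 2 the value of hsp90b1 in the mutant was 0.26 (adjusted p = 0.00933). The gene hyou1, which encodes a nucleotide exchange factor for BiP, rose in wild type by 0.41 on the log2 scale (SE 0.08, adjusted p = 0.000716). It ran between 99.7 and 108.7 CPM in wild-type larvae with iAs and between 69.7 and 83.8 CPM in untreated wild-type larvae. The other 3 luminal genes, sdf2l1, manf and creld2, passed the test in neither genotype, with log2 fold changes between -0.14 and 0.29.

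The calnexin and calreticulin cycle retains glycoproteins that have not yet folded. The gene calr (ENSDARG00000076290), which encodes the soluble lectin calreticulin, fell in both genotypes. It stood at 38.6, 40.9 and 39.0 CPM in mutant larvae with iAs, against 79.2, 77.0 and 72.5 CPM in untreated mutant larvae. Levels in wild-type larvae stood at 67.6, 70.9 and 63.8 CPM with iAs, against 94.3, 92.9 and 91.8 CPM without. No group overlapped any other, in the order treated mutant, treated wild type, untreated mutant and untreated wild type, low to high. The treated level was 1.93-fold lower in the mutant (log2 -0.95, SE 0.06, adjusted p = 2.4e-10) and 1.38-fold lower in wild type (log2 -0.46, SE 0.06, adjusted p = 5.3e-06).

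The gene uggt1 (ENSDARG00000054746) encodes the folding sensor that puts a glucose back on misfolded glycoproteins. It stood at 13.6, 17.3 and 17.0 CPM in mutant larvae with iAs, against 34.5, 29.5 and 23.8 CPM in untreated mutant larvae. In wild-type larvae uggt1 stood at 27.3, 26.5 and 25.4 CPM with iAs, against 23.4, 25.6 and 25.2 CPM without. The treated mutant libraries were below those of every other group, while the wild-type groups overlapped. The treated level was 1.84-fold lower in the mutant (log2 -0.88, SE 0.11, adjusted p = 2.5e-06), and the wild-type value was 0.09 (SE 0.11, 95% interval -0.14 to 0.33, adjusted p = 0.532). The membrane-bound lectin gene canx ran between 386.3 and 406.7 CPM in wild-type larvae with iAs and between 317.7 and 319.7 CPM in untreated wild-type larvae. This was a rise of 0.31 on the log2 scale (SE 0.06, adjusted p = 0.000702), and the value of canx in the mutant was 0.02 (SE 0.06, 95% interval -0.12 to 0.15, adjusted p = 0.838).

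**Figure D2:**
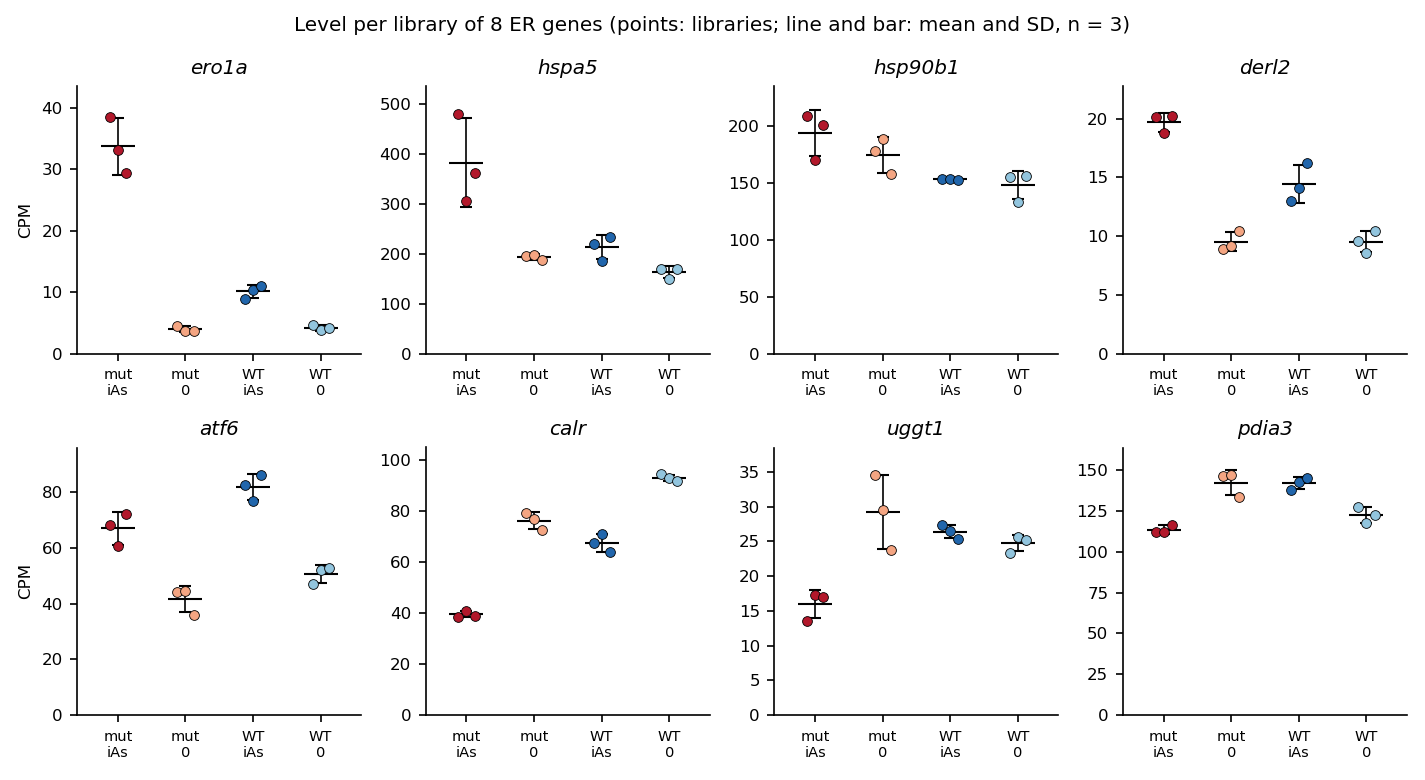
CPM of 8 ER genes in each library, in the order mutant with iAs, untreated mutant, wild type with iAs and untreated wild type, with lines for the mean and bars for the SD (n = 3). For ero1a the treated mutant libraries lie between 29.4 and 38.5 CPM and the treated wild-type libraries between 8.93 and 10.9 CPM, and for uggt1 the treated mutant libraries lie at or below 17.3 CPM, under all others.

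Of the 9 genes of ER-associated degradation, the largest of the 6 roles, 5 rose in each genotype, beside 31.1% of all genes in the mutant and 22.6% in wild type. They were derl2, derl3, edem1, herpud1 and erlec1 in the mutant and derl2, derl1, edem1, herpud1 and erlec1 in wild type. The derlins encoded by derl1, derl2 and derl3 are membrane proteins of the channel through which misfolded proteins leave the ER. The gene derl2 (ENSDARG00000042401) stood at 20.1, 18.8 and 20.2 CPM in mutant larvae with iAs, against 8.93, 9.20 and 10.4 CPM in untreated mutant larvae. In wild-type larvae derl2 stood at 12.99, 14.1 and 16.2 CPM with iAs, against 9.55, 8.59 and 10.4 CPM without. Treated libraries lay above untreated ones in both genotypes, and the fold change was 2.07 in the mutant (log2 1.05, SE 0.10, adjusted p = 7.4e-08) and 1.52 in wild type (log2 0.61, SE 0.10, adjusted p = 0.000133).

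The gene derl3 (ENSDARG00000033871) stood at 17.5, 15.9 and 15.9 CPM in mutant larvae with iAs, against 12.9, 10.4 and 11.6 CPM in untreated mutant larvae. It stood at 14.9, 14.5 and 13.6 CPM in wild-type larvae with iAs, against 14.4, 12.5 and 13.4 CPM without. The mutant groups did not overlap and the wild-type groups did (mutant log2 0.50, SE 0.10, adjusted p = 0.000162; wild type 0.09, SE 0.09, adjusted p = 0.467). The gene derl1 (ENSDARG00000021905) stood at 42.7, 46.4 and 43.8 CPM in mutant larvae with iAs, against 44.9, 38.9 and 36.1 CPM in untreated mutant larvae. It stood at 51.0, 48.8 and 56.9 CPM in wild-type larvae with iAs, against 36.9, 40.4 and 41.0 CPM without. For derl1 the mutant groups overlapped and the wild-type groups did not (mutant log2 0.15, 95% interval -0.02 to 0.32, adjusted p = 0.121; wild type 0.41, SE 0.08, adjusted p = 0.000571). The difference between the genotypes in the response of derl1 was not called (-0.26, 95% interval -0.50 to -0.01, adjusted p = 0.102), and that of derl3 was called and lost on leaving out any 1 of 5 libraries (adjusted p up to 0.0787).

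The gene edem1, whose product marks glycoproteins for degradation, rose by 0.49 in the mutant (SE 0.07, adjusted p = 5e-06) and by 0.32 in wild type (SE 0.07, adjusted p = 0.000971) on the log2 scale. The gene herpud1, a ubiquitin-like membrane component of the degradation complex, rose by 0.40 in the mutant (SE 0.08, adjusted p = 0.00015) and by 0.22 in wild type (SE 0.08, adjusted p = 0.0241). The lectin gene erlec1 rose by 0.21 in the mutant (adjusted p = 0.0227) and by 0.24 in wild type (adjusted p = 0.015). Some of these calls rested on single libraries. The mutant call of erlec1 was lost when any 1 of 3 mutant libraries was left out (adjusted p up to 0.0972) and with library size as the only scaling (log2 0.14, adjusted p = 0.126). Its wild-type call was lost without wild-type iAs replicate 3 (log2 0.16, adjusted p = 0.123), and that of herpud1 when any 1 of 3 wild-type libraries was left out (adjusted p up to 0.107). The ubiquitin ligase gene syvn1, its partner sel1l and the lectin gene os9 were called in neither genotype.

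The mRNAs of the stress sensors did not move together. The gene atf6 (ENSDARG00000012656), which encodes the membrane-bound precursor of a transcription factor, rose in both genotypes. It stood at 68.3, 60.7 and 72.2 CPM in mutant larvae with iAs, against 44.3, 44.5 and 36.1 CPM in untreated mutant larvae. In wild-type larvae atf6 stood at 82.6, 76.9 and 86.1 CPM with iAs, against 47.1, 52.1 and 53.0 CPM without. Treated libraries were above untreated ones in both genotypes, at 1.61-fold in the mutant (log2 0.69, SE 0.09, adjusted p = 1.4e-06) and 1.61-fold in wild type (log2 0.69, SE 0.08, adjusted p = 3.65e-06). The treated mutant libraries were nevertheless below the treated wild-type libraries.

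The gene ern1 (ENSDARG00000013997) encodes the kinase and nuclease IRE1, and it stood at 39.2, 48.6 and 44.3 CPM in mutant larvae with iAs, against 80.7, 57.7 and 62.5 CPM in untreated mutant larvae. In wild-type larvae ern1 stood at 47.1, 47.1 and 49.2 CPM with iAs, against 54.8, 55.8 and 60.3 CPM without. The treated libraries were below the untreated ones in both genotypes, 1.52-fold lower in the mutant (log2 -0.61, SE 0.10, adjusted p = 4.3e-05) and 1.19-fold lower in wild type (log2 -0.25, SE 0.10, adjusted p = 0.04997). The wild-type call lay at the threshold and was lost when any 1 of 7 libraries was left out (adjusted p up to 0.168) and with library size as the only scaling (adjusted p = 0.0701). The gene eif2ak3 (ENSDARG00000062139) encodes the kinase PERK, and it stood at 37.1, 32.1 and 33.7 CPM in mutant larvae with iAs, against 39.0, 38.4 and 35.7 CPM in untreated mutant larvae. In wild-type larvae eif2ak3 stood at 28.0, 27.5 and 27.4 CPM with iAs, against 34.6, 33.0 and 32.7 CPM without. Its fall was called in wild type (log2 -0.28, SE 0.07, adjusted p = 0.00302) and not in the mutant (log2 -0.14, SE 0.07, adjusted p = 0.0836), where leaving out mutant untreated replicate 3 (-0.19, adjusted p = 0.0323) or mutant iAs replicate 1 (-0.20, adjusted p = 0.0212) brought it below the threshold.

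The gene xbp1 (ENSDARG00000035622) encodes the transcription factor whose mRNA is spliced by IRE1. The counts are per gene, so they do not separate the spliced form from the unspliced form. It stood at 199.9, 180.0 and 182.4 CPM in mutant larvae with iAs, against 171.4, 168.1 and 159.0 CPM in untreated mutant larvae. In wild-type larvae xbp1 stood at 173.0, 174.0 and 182.7 CPM with iAs, against 186.9, 171.7 and 186.7 CPM without. The groups were apart in the mutant (log2 0.17, SE 0.06, adjusted p = 0.0172) and overlapped in wild type (log2 -0.04, SE 0.06, adjusted p = 0.604). The mutant call of xbp1 was lost without mutant untreated replicate 3 (log2 0.13, adjusted p = 0.0818), without mutant iAs replicate 1 (log2 0.12, adjusted p = 0.0904) and with library size as the only scaling (log2 0.11, adjusted p = 0.117).

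The 5 translocon and glycosyltransferase genes had log2 fold changes between -0.14 and 0.19 over both genotypes. The Sec61 subunit gene sec61b rose in wild type by 0.18 on the log2 scale (SE 0.06, adjusted p = 0.015), and ddost, a subunit of the oligosaccharyltransferase, rose by 0.19 (SE 0.06, adjusted p = 0.0129). The wild-type call of sec61b was lost without wild-type iAs replicate 3 (log2 0.12, adjusted p = 0.135), and that of ddost when any 1 of 3 wild-type libraries was left out (adjusted p up to 0.0758). The gene ssr2, a subunit of the translocon-associated protein complex, fell in the mutant by 0.14 on the log2 scale (SE 0.06, adjusted p = 0.0417). That call was lost when any 1 of 4 mutant libraries was left out (adjusted p up to 0.146) and under 4 other settings, where adjusted p ran up to 0.0688. The genes ssr1 and ssr3 of the same complex were called in neither genotype.

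Whether the response to iAs differed between mutant and wild-type larvae was tested as the difference of the log2 fold changes, mutant minus wild type. This difference was called for 12 of the 34 ER genes: it was positive for 4 (ero1a, hspa5, derl2 and derl3) and negative for 8 (uggt1, pdia3, calr, txndc11, txndc5, canx, ddost and sec61b). Over all genes tested, 30.2% had a difference called in either direction, 12.3% a positive and 17.9% a negative one, against 11.8% and 23.5% of the ER genes. The median difference over the ER genes was -0.12, against -0.05 over all genes. With DESeq2 size factors in edgeR, and with DESeq2 itself, the 34 genes split into 5 positive and 5 negative calls, and with library size alone into 2 and 13, where the median over all genes was -0.12.

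The differences that remained called without each of the 12 libraries in turn were those of ero1a, hspa5, calr, uggt1 and pdia3. The difference was 1.80 for ero1a (SE 0.18, adjusted p = 1.4e-06) and 0.60 for hspa5 (SE 0.17, adjusted p = 0.0113), on the log2 scale. It was -0.97 for uggt1 (SE 0.16, adjusted p = 0.000199), -0.54 for pdia3 (SE 0.08, adjusted p = 7.9e-05) and -0.48 for calr (SE 0.08, adjusted p = 0.000304). The oxidase and BiP genes thus rose more in the mutant, calr fell more there, uggt1 fell in the mutant and was not called in wild type, and pdia3 went in opposite directions. The 3 genes calr, uggt1 and canx, grouped here as glycoprotein quality control, were among those with a negative difference, canx with -0.29 (SE 0.09, adjusted p = 0.0196). This group does not hold every gene of the glycoprotein cycle.

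The other 7 called differences were lost on leaving out single libraries. This was so for 2 libraries for ddost (adjusted p up to 0.0506), 4 for canx (up to 0.0647), 5 for derl3 (up to 0.0787), 7 for derl2 (up to 0.0874), 8 for txndc5 (up to 0.114), 9 for txndc11 (up to 0.105) and 10 for sec61b (up to 0.113). Their values were 0.44 for derl2 (adjusted p = 0.0292), 0.41 for derl3 (adjusted p = 0.0275), -0.43 for txndc11 (adjusted p = 0.0387), -0.34 for txndc5 (adjusted p = 0.0421), -0.28 for ddost (adjusted p = 0.0175) and -0.23 for sec61b (adjusted p = 0.0368). Of the sensor genes and xbp1, none had a difference called: -0.00 for atf6 (95% interval -0.26 to 0.25, adjusted p = 0.986), 0.22 for xbp1 (0.04 to 0.39, adjusted p = 0.0628), -0.35 for ern1 (-0.65 to -0.05, adjusted p = 0.0691) and 0.14 for eif2ak3 (-0.06 to 0.34, adjusted p = 0.297). Over all genes tested 30.2% had a difference called, and these 4 genes are too few to set against that share. The difference was called for xbp1 without mutant iAs replicate 2 (0.27, adjusted p = 0.0294), and for ern1 without mutant untreated replicate 2 (-0.45, adjusted p = 0.0242) or mutant iAs replicate 2 (-0.40, adjusted p = 0.0426). For hsp90b1 the difference was 0.10 (-0.14 to 0.34, adjusted p = 0.561). The intervals leave room for differences of either sign for atf6, eif2ak3 and hsp90b1.

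**Figure D3:**
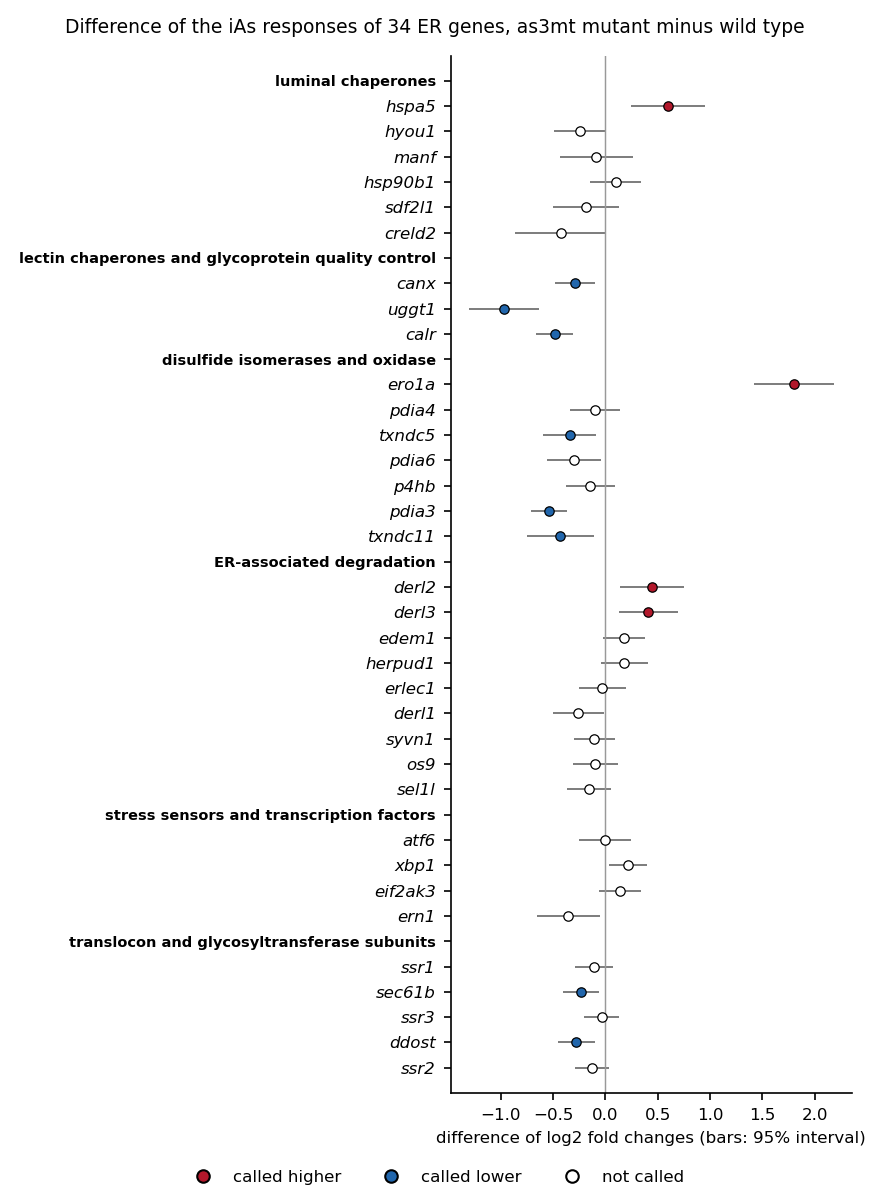
Difference of the log2 fold changes with iAs, as3mt mutant minus wild type, for each of the 34 ER genes by role, with bars for the 95% interval. Red points were called positive (4 genes, ero1a at 1.80 farthest right) and blue points called negative (8 genes, uggt1 at -0.97 farthest left).

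Without iAs, the share of ER genes that differed between mutant and wild-type larvae was near that over all genes. Compared with wild type, 2 ER genes were higher in the mutant, pdia3 and pdia4, and 3 were lower, calr, p4hb and atf6. The background was 13.5% of all genes called in either direction, 6.64% higher and 6.82% lower, against 5.88% and 8.82% of the ER genes. The median was 0.00 over the ER genes and 0.00 over all genes. The groups did not overlap for 4 ER genes higher in the mutant (background 16.2%) and 5 lower in the mutant (background 16.4%). The log2 fold change was -0.38 for p4hb (SE 0.08, adjusted p = 0.00347), -0.29 for calr (SE 0.06, adjusted p = 0.0028) and -0.28 for atf6 (SE 0.09, adjusted p = 0.0339). It was 0.22 for pdia3 (SE 0.06, adjusted p = 0.0151) and 0.25 for pdia4 (SE 0.08, adjusted p = 0.0445). The calls of calr and p4hb were kept without each library in turn, and those of atf6, pdia3 and pdia4 were lost on leaving out any 1 of 3, 4 and 7 libraries, with adjusted p up to 0.147, 0.087 and 0.22. The untreated values of the other genes followed throughout were 0.25 for hspa5 (95% interval -0.00 to 0.50, adjusted p = 0.194), 0.24 for hsp90b1 (0.07 to 0.41, adjusted p = 0.0603) and -0.06 for ero1a (-0.36 to 0.23, adjusted p = 0.831). The value of hsp90b1 passed the test on leaving out mutant untreated replicate 3 (0.31, adjusted p = 0.0214), mutant iAs replicate 2 (0.24, adjusted p = 0.0345) or mutant iAs replicate 1 (0.24, adjusted p = 0.0426). That of hspa5 passed it without mutant iAs replicate 1 (0.25, adjusted p = 0.0482). Values were -0.13 for xbp1 (adjusted p = 0.178), 0.23 for ern1 (adjusted p = 0.14) and 0.17 for eif2ak3 (adjusted p = 0.105). With RLE size factors the split was 1 higher and 3 lower, and with library size alone 3 higher and 2 lower.

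Under iAs, 5 ER genes were higher in the mutant than in wild type and 14 were lower, against a background of 50.4% of all genes called in either direction, 22.5% higher and 27.9% lower. The 5 were ero1a, hspa5, derl2, hsp90b1 and eif2ak3, and the 14 were calr, uggt1, canx, p4hb, pdia3, pdia6, txndc5, txndc11, sel1l, derl1, atf6, sec61b, ddost and sdf2l1. The median was -0.16 over the ER genes and -0.04 over all genes, and 8 ER genes higher in the mutant (background 25.6%) and 18 lower (background 31.8%) did not overlap. The mutant level was 3.33-fold that of wild type for ero1a (log2 1.74, SE 0.12, adjusted p = 2.1e-09) and 1.80-fold for hspa5 (log2 0.85, SE 0.12, adjusted p = 1.3e-05). It was 0.45 higher on the log2 scale for derl2 (adjusted p = 0.00123), 0.34 for hsp90b1 (adjusted p = 0.00218) and 0.31 for eif2ak3 (adjusted p = 0.000971). The 3 genes grouped as glycoprotein quality control were lower in the mutant, calr with a log2 value of -0.77 (SE 0.06, adjusted p = 1.3e-08), uggt1 with -0.73 (SE 0.11, adjusted p = 4.5e-05) and canx with -0.33 (SE 0.06, adjusted p = 0.000343). Of the 7 disulfide genes 5 were lower, p4hb the most at -0.52 (SE 0.08, adjusted p = 3.1e-05). For atf6 the value was -0.29 (SE 0.08, adjusted p = 0.00812), and this call was lost without mutant iAs replicate 2 (log2 -0.20, adjusted p = 0.0724). Of the other lower calls, that of sdf2l1 was lost on leaving out any 1 of 8 libraries (adjusted p up to 0.218), that of derl1 on any 1 of 3 (up to 0.131) and that of txndc11 without wild-type iAs replicate 1 (adjusted p = 0.060). The values of xbp1 and ern1 were 0.09 (adjusted p = 0.245) and -0.12 (adjusted p = 0.346).

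The wider ER pathway was followed with 6 lists of other genes. The lists were chosen with earlier results of these data known, so their shares are descriptions only. They are to be read beside the shares of all genes called higher and lower with iAs. These were 31.1% and 32.6% in the mutant and 22.6% and 22.2% in wild type. For a list gene named for its call in 1 genotype, the value in the other is given whether or not it was called. Each gene of the 6 lists whose own change is given was called in both genotypes, except creb3l3b in the mutant. Of 28 further transducers and downstream factors of the unfolded protein response, 21 rose (75.0%) and 2 fell with iAs in the mutant (median log2 0.97). In wild type 19 rose (67.9%) and 3 fell (median 0.52). This list also held nfe2l1b and cell death genes such as bax, bbc3 and casp9. Its shares therefore do not describe the unfolded protein response alone. In the mutant, ppp1r15a was 7.12-fold and ppp1r15b 4.88-fold higher with iAs (adjusted p = 3.8e-12 and 4.8e-10), and in wild type they were 1.81-fold and 2.62-fold higher (adjusted p = 2.8e-05 and 1.3e-06). Both genes encode subunits that direct dephosphorylation of the translation factor eIF2α, a target of PERK and of other kinases. The gene nfe2l1b, a transcription factor of proteasome genes in mammals, was 3.66-fold higher in the mutant and 3.17-fold higher in wild type, and creb3l3b was 2.16-fold lower in wild type (adjusted p = 4.3e-06), with a log2 value of 0.07 in the mutant (adjusted p = 0.657).

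Of 29 other genes of ER-associated degradation, 20 rose (69.0%) and 3 fell in the mutant (median 0.46), and 17 rose (58.6%) in wild type (median 0.29). This list also held genes of wider ubiquitin-dependent degradation, such as VCP and UFD1. Its shares therefore do not describe the ER route alone. RHBDD1, a rhomboid protease of this route, was 4.44-fold higher with iAs in the mutant and 2.02-fold higher in wild type. BCAP31 was 2.11-fold and ubxn4 2.02-fold higher in the mutant, and they were 1.65-fold and 1.51-fold higher in wild type. VCP, the ATPase that pulls proteins out of the membrane, was 1.83-fold higher in the mutant and 2.15-fold higher in wild type, and its cofactor UFD1 was 1.78-fold and 2.01-fold higher.

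The lists of early secretion were more mixed. Of 22 genes of the oligosaccharyltransferase and N-glycan processing, 8 rose (36.4%) and 4 fell (18.2%) in the mutant (median 0.06), and 12 rose (54.5%) in wild type (median 0.24). Without mutant untreated replicate 3, 7 of these fell in the mutant. The mannosyltransferase gene ALG2 was 3.78-fold higher with iAs in the mutant and 2.49-fold higher in wild type, and ALG5 was 1.71-fold and 1.39-fold higher. Of 15 genes of the translocon and signal peptidase, 6 rose (40.0%) and 5 fell (33.3%) in the mutant (median 0.08), and 6 rose and 1 fell (0 to 2 on leaving out single libraries) in wild type (median 0.09). In the mutant 3 of them fell on leaving out untreated replicate 1, untreated replicate 2 or iAs replicate 2. SRP54, the GTPase of the signal recognition particle, was 1.59-fold higher in the mutant and 1.38-fold higher in wild type.

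Of 49 other disulfide and folding enzymes, 14 rose (28.6%) and 17 fell (34.7%) in the mutant (median 0.04), near the shares over all genes, and 17 rose (34.7%) and 9 fell (18.4%) in wild type (median 0.06). SERPINH1 (ENSDARG00000019949), a collagen chaperone, was 5.33-fold higher in the mutant and 1.62-fold higher in wild type. It is 1 of 2 gene IDs with this name in the list, and the other is not described. TXNDC16 was 3.34-fold lower in the mutant (log2 -1.74). In wild type it was also called lower, with -0.38 on the log2 scale (edgeR adjusted p = 0.0270). SIL1, an exchange factor for BiP, was 1.47-fold higher in the mutant and 2.66-fold higher in wild type, and rcn3 was 1.53-fold and 1.75-fold lower. Of 40 carriers and cargo receptors between the ER and the Golgi, 17 rose (42.5%) and 9 fell (22.5%) in the mutant (median 0.14), and 16 rose (40.0%) and 7 fell (17.5%) in wild type (median 0.17). Without wild-type untreated replicate 3, 4 of these fell in wild type. SEC22B (ENSDARG00000030108), a SNARE protein of these carriers, was 3.23-fold higher in the mutant and 1.74-fold higher in wild type. The other gene ID named SEC22B in the list is not described. The cargo receptor gene LMAN1 was instead 1.81-fold lower in the mutant. In wild type LMAN1 was called lower as well, by 1.13-fold with iAs (edgeR adjusted p = 0.0384). The coat gene SEC23B was 1.44-fold lower in the mutant and 1.79-fold lower in wild type.

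**Figure D4:**
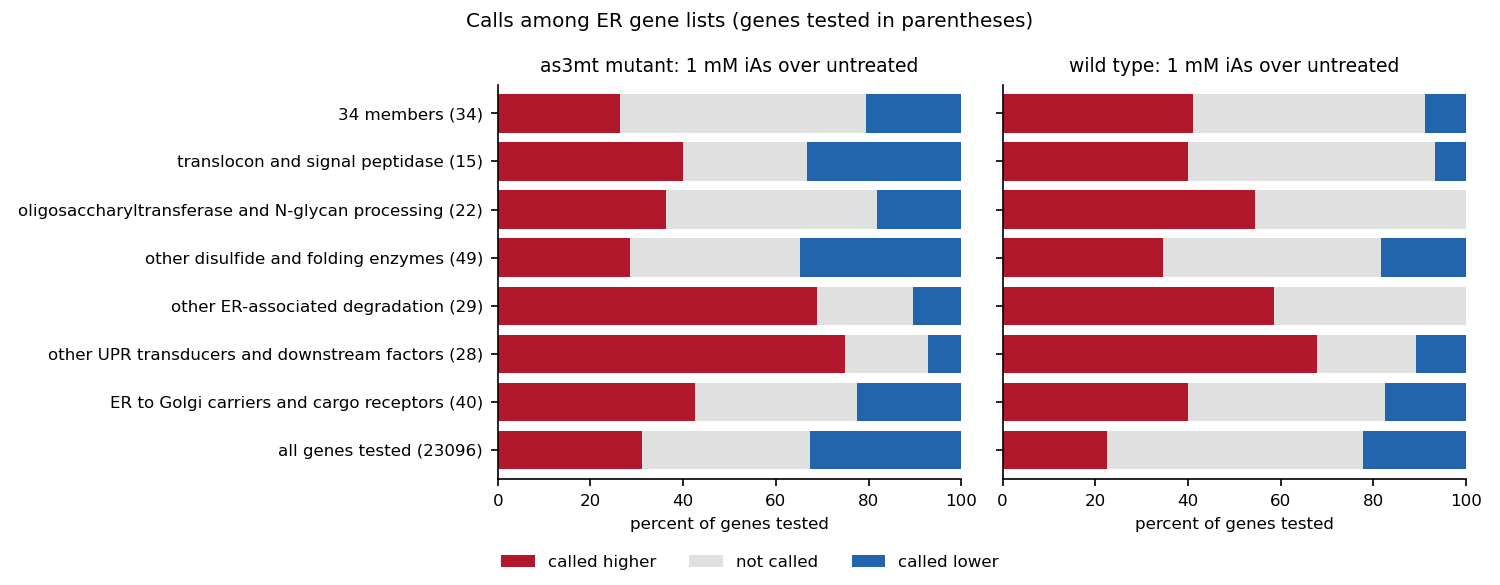
Percent of genes called higher (red), not called (grey) and called lower (blue) with 1 mM iAs over no iAs, in as3mt mutant larvae (left) and wild-type larvae (right), for the 34 ER genes, 6 lists of other ER genes and all genes tested. The lists of other transducers (21 of 28 genes higher in the mutant, 19 in wild type) and other ER-associated degradation (20 and 17 of 29) have the longest red bars in both panels.

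Cells that secrete large amounts of protein are rich in ER, and their markers moved with iAs in the same libraries. The counts of all 7 marker lists are to be read beside the shares of all genes called with iAs. Of all genes, 31.1% rose and 32.6% fell in the mutant, and 22.6% rose and 22.2% fell in wild type. Of 18 exocrine pancreas genes, 1 rose and 16 fell with iAs in the mutant, and 1 rose and 15 fell in wild type. The summed level of this list ran from 3013 to 3819 CPM in mutant larvae with iAs and from 7482 to 8671 CPM in untreated mutant larvae. In wild-type larvae it ran from 6882 to 7969.9 CPM with iAs and from 10612 to 12944 CPM without. The untreated genotypes also differed, with 14 of the 18 genes lower in the mutant, beside 6.82% of all genes. Of 24 hepatocyte genes, 6 rose and 16 fell in the mutant, and 5 rose and 17 fell in wild type, where 3 rose without wild-type untreated replicate 2 or wild-type iAs replicate 2. Together they ran from 6994 to 8099 CPM in mutant larvae with iAs and from 10183 to 11447 CPM in untreated mutant larvae. In wild-type larvae it ran from 8357 to 8995 CPM with iAs and from 9931 to 10886 CPM without. The treated libraries were thus below the untreated ones for both lists in both genotypes.

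Markers of the gut and skeleton fell as well. Of 27 enterocyte genes, 1 rose and 25 fell in the mutant, and 25 fell in wild type. The sum over these genes ran from 917 to 1003 CPM in mutant larvae with iAs and from 3853 to 4069 CPM in untreated mutant larvae. The wild-type libraries ran from 1797 to 2075 CPM with iAs and from 3619 to 3947 CPM without. MEP1B (ENSDARG00000037533), 1 of 2 gene IDs with this symbol in the list, had 0 counts in all mutant libraries with iAs. Of 23 cartilage and bone genes tested, 20 fell in the mutant and 22 in wild type. Summed, they ran from 4315 to 4848 CPM in mutant larvae with iAs and from 7487 to 8711 CPM in untreated mutant larvae. The range in wild-type larvae was 4316 to 5059 CPM with iAs and 7837 to 8059 CPM without. The osteoblast gene bglap had 0 counts in all 12 libraries. Of 7 goblet and mucous cell genes tested, 4 fell in each genotype, although 2 fell in wild type without wild-type iAs replicate 2. The list summed to a level that ran from 278 to 296 CPM in mutant larvae with iAs and from 359 to 384 CPM in untreated mutant larvae. Wild-type libraries ran from 288 to 302 CPM with iAs and from 343 to 379 CPM without.

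The lists of the notochord and of blood cells differed from these. The genes cnmd and epyc stood in both the notochord list and the cartilage and bone list, so those lists are not separate. Of 14 notochord genes, 6 rose and 7 fell in the mutant, and 3 rose and 7 fell in wild type. These genes summed to levels from 1089 to 1331 CPM in mutant larvae with iAs and from 967 to 1029 CPM in untreated mutant larvae. In wild type the sums ran from 825 to 953 CPM with iAs and from 955 to 1008 CPM without. Of 15 neutrophil and macrophage genes, 10 rose and 2 fell in the mutant, and 1 rose (0 to 2 on leaving out single libraries) and 2 fell in wild type. Their summed level ran from 92.6 to 151 CPM in mutant larvae with iAs and from 78.5 to 82.4 CPM in untreated mutant larvae. The wild-type sums ran from 57.1 to 66.2 CPM with iAs and from 69.4 to 77.1 CPM without. This list was the 1 list of the 7 in which most genes rose in the mutant. It also held il1b and mmp13a, and whether the number of these cells changed was not tested. The part of these cell types in the values of the 34 ER genes was not tested.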

How the data were processed

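For each of the 12 libraries the authors deposited raw read counts by Ensembl gene ID. The submitters' processing notes name FastQC 0.11.5, Trimmomatic 0.36 and the build GRCz10. Not given in the sources used here are how reads were aligned and counted, whether strand was used, and what was done with reads that fit several genes. Reads from near-identical copies could therefore have been split or dropped. Per the labels' protocols, libraries were made from 100 ng of poly-A RNA with a RIN above 7 and 12 PCR cycles. Groups came from the sample titles, and all libraries share 1 run label, which left no batches to compare. At totals of 28909467 to 43759270 counts, replicates differed by more than sampling noise over all genes together (lowest chi-square over degrees of freedom 5.18). For genes with few counts, such as creld2 with 128 to 234 per library, counting error need not be small beside the spread between libraries. The labels do not explain the replicate numbers, and the main fit did not use them as pairs. Deviations of same-numbered libraries had correlations from -0.0262 to 0.0695. Such correlations cannot exclude pairing for some genes.

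The filter was edgeR's filterByExpr (minimum count 10), and library sizes were TMM-scaled. Counts were fitted with edgeR 4.0.16 (glmQLFit, glmQLFTest, R 4.3.3) to the 4 groups over all 12 libraries. Adjusted p-values are by Benjamini-Hochberg over all 23096 genes tested in a comparison, and the call threshold was 0.05. Standard errors (SE) belong to log2 fold changes and were taken from the change and its F statistic. The script was tested on simulated data. The 34 genes and all lists were chosen with earlier results of these data known. Of 331 list entries 294 were matched to a gene, and symbols came from a table that named 26269 of the 32105 IDs, so some carry the human spelling. Values were given in every library for hspa5, hsp90b1, xbp1, atf6, ern1, eif2ak3 and ero1a, and for the 4 largest called rises and falls with iAs in each genotype and in the difference between genotypes. From each list up to 3 called genes per genotype could be named. Their values in the other genotype are given whether or not they were called there. Alternatives were RLE size factors, library size alone, DESeq2 1.42.0, a fit of the compared libraries alone, no filter, a filter at a mean count of 50, a replicate block, and leaving out each library. Figures were made with Python 3.11.15 and matplotlib 3.10.9.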

Additional observations from a re-analysis of the deposited data

Results flagged for a closer look

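For 12 of the 34 ER genes the response to iAs differed between as3mt mutant and wild-type larvae by a test of the difference itself. This was the edgeR interaction term, with Benjamini-Hochberg adjustment over all genes tested. Of the ER genes 11.8% had a positive and 23.5% a negative difference called, against 12.3% and 17.9% of all genes tested. In either direction 30.2% of all genes tested were called, so the ER count lay near the background. On the log2 scale, mutant minus wild type, the difference was 1.80 for ero1a, 0.60 for hspa5, 0.44 for derl2 and 0.41 for derl3, whose fold changes were the higher ones in the mutant. It was -0.97 for uggt1, -0.54 for pdia3, -0.48 for calr, -0.43 for txndc11, -0.34 for txndc5, -0.29 for canx, -0.28 for ddost and -0.23 for sec61b. The calls of ero1a, hspa5, uggt1, pdia3 and calr were kept without each of the 12 libraries in turn, and the other 7 were lost on leaving out at least 1 library. With DESeq2, 5 positive and 5 negative differences were called. The genotypes also differ in strain background, which cannot be told apart from the as3mt allele in these differences.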

How the results depend on the processing

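Both the scaling and single libraries moved the counts of ER genes. With library size alone, 12 were called lower with iAs in the mutant, and the difference of the responses was called positive for 2 and negative for 13. The negative differences numbered 5 with DESeq2 size factors and 5 with DESeq2. Between untreated genotypes, 1 gene was higher in the mutant with DESeq2 size factors and 4 with only the libraries compared, and under iAs 8 were higher with only the libraries compared. Leaving out single libraries gave 8 to 16 genes higher with iAs in wild type, 0 to 4 higher in the untreated mutant, and 2 to 5 positive and 4 to 12 negative differences. The signs that turned belonged to values near 0, none of them called. For canx in the mutant the value was -0.0501 with library size alone, -0.00502 with no filter and -0.0704 to 0.0492 on leaving out libraries. For atf6 the difference was 0.0286 with DESeq2 size factors, 0.0288 with DESeq2, 0.0122 at a mean count of at least 50 and -0.0949 to 0.0912 on leaving out libraries. Leaving out libraries gave -0.0164 to 0.0910 for hsp90b1 in wild type, -0.0501 to 0.0922 for txndc11 in wild type and -0.177 to 0.0224 for ero1a between untreated genotypes. The cause was not tested. With the replicate number as a block, 1 gene was higher in the untreated mutant, and the calls of ern1 in wild type (adjusted p = 0.0659), pdia4 and atf6 between untreated genotypes (0.0615 and 0.0501) and sdf2l1 under iAs (0.0503) were lost. Whether the numbers mark pairs of samples is not stated. The block also added the calls of herpud1 under iAs (adjusted p = 0.0345) and of pdia6 for the difference (0.0402).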
